A study of Homo sapiens with 8 samples.

Results

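The 10 genes described here encode regulators of the mitochondrial route to apoptosis, the BCL2 family. They were chosen by name and not by a rule on their values, though with earlier results of these data known. They comprise the antiapoptotic members BCL2, BCL2L1, BCL2L2 and MCL1, the effectors BAX and BAK1, and the BH3-only members BAD, BID, BCL2L11 and PMAIP1. All 10 were found among the 57992 genes in the counts, and all 10 were among the 13412 genes with enough counts to be tested. RKO, an established human colon carcinoma cell line, was treated with control siRNA or with A20 siRNA (4 samples each), and all 8 samples then received recombinant human wnt3a at 50 ng/mL for 24 hours before RNAseq. There is no group without wnt3a, and both siRNAs are compared in wnt3a-stimulated cells only. A20 is encoded by TNFAIP3 and is a ubiquitin-editing enzyme that restrains TNF-receptor and NFkB signaling and cell death.

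BCL2 family proteins meet at the outer mitochondrial membrane. BAX and BAK1 form the pores that release cytochrome c, the antiapoptotic proteins hold them in check, and the BH3-only proteins relay stress by neutralizing the antiapoptotic proteins or engaging the effectors. Several members turn over quickly, MCL1 and PMAIP1 in particular, so that transcript supply is one of the controls on their protein. NFkB is known to induce antiapoptotic members such as BCL2L1 and BCL2A1 in many cells. Only transcripts were measured here.

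Total counts on genes were between 21226451 and 34194273 per sample, and the groups overlapped in depth. At these depths 3 counts, the most that a count of 0 allows, correspond to between 0.0875 and 0.141 CPM (counts scaled to the normalized library size), counting error only. TNFAIP3 had 4.92, 5.83, 5.59 and 5.54 CPM in control replicates 1 to 4 and 3.47, 3.01, 3.40 and 3.43 CPM in A20 siRNA replicates 1 to 4. It was lower in all 4 A20 siRNA samples than in any control sample (p = 0.0286 in a two-sided exact permutation test, which 4 against 4 cannot go below), and 61.0% of its control level remained. Of 8 colon epithelial markers 4 were expressed enough to be tested, among them KRT18 at 91.2 to 101.3 CPM and EPCAM at 16.5 to 18.7 CPM, whereas CDH1, KRT19 and KRT20 had no count in any sample. Of 2 mesenchymal genes, ZEB1 had 456.8 to 492.5 CPM and VIM 19.0 to 21.6 CPM. The summed markers of fibroblasts, leukocytes and endothelium stayed at or under 0.328 CPM in every sample. Over all genes, 82 were lower and 85 higher after A20 siRNA (edgeR's quasi-likelihood test, adjusted p under 0.05), that is 0.611% and 0.634% of those tested and 1.25% in all. With a correction of each sample for exonic length and GC content, 251 were lower and 96 higher. Rank correlations of each sample's deviation from the gene mean with exonic length differed between samples. They were 0.089, -0.167, -0.110 and -0.202 in control replicates 1 to 4. In A20 siRNA replicates 1 to 4 they were 0.079, -0.075, 0.155 and 0.191. The part of this trend in the differences between groups was not tested.

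The 10 transcripts covered a wide range of levels, given here as TPM computed from the counts and the exonic length of each gene (counts per base of exon, scaled to the same sum in every sample). MCL1 was the most abundant at 948.3 ± 10.1 TPM with control siRNA (SD, n = 4) and BCL2 the least abundant at 9.01 ± 0.462 TPM (SD, n = 4). MCL1, a short-lived protein that guards BAK1 and BAX, stood 4.71-fold above the next member. BAX followed at 201.2 ± 4.04 TPM, then BCL2L1, which encodes BCL-XL, at 150.3 ± 0.885 TPM and BAK1 at 136.1 ± 5.41 TPM (SD, n = 4 each). BID, the BH3-only protein that caspase-8 cleaves to link death receptors to mitochondria, had 72.6 ± 2.13 TPM. BAD, a BH3-only protein controlled by phosphorylation, had 34.2 ± 2.23 TPM, and BCL2L2, which encodes BCL-W, had 32.1 ± 1.89 TPM. PMAIP1, which encodes NOXA, a BH3-only protein that binds MCL1, had 24.4 ± 1.69 TPM. BCL2L11, which encodes BIM, a BH3-only protein that binds all antiapoptotic members, had 9.70 ± 0.518 TPM. Among neighbours in this order, BAD and BCL2L2 overlapped over the 8 samples, as did BCL2L11 and BCL2, and the other neighbours did not.

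**Figure D1:**
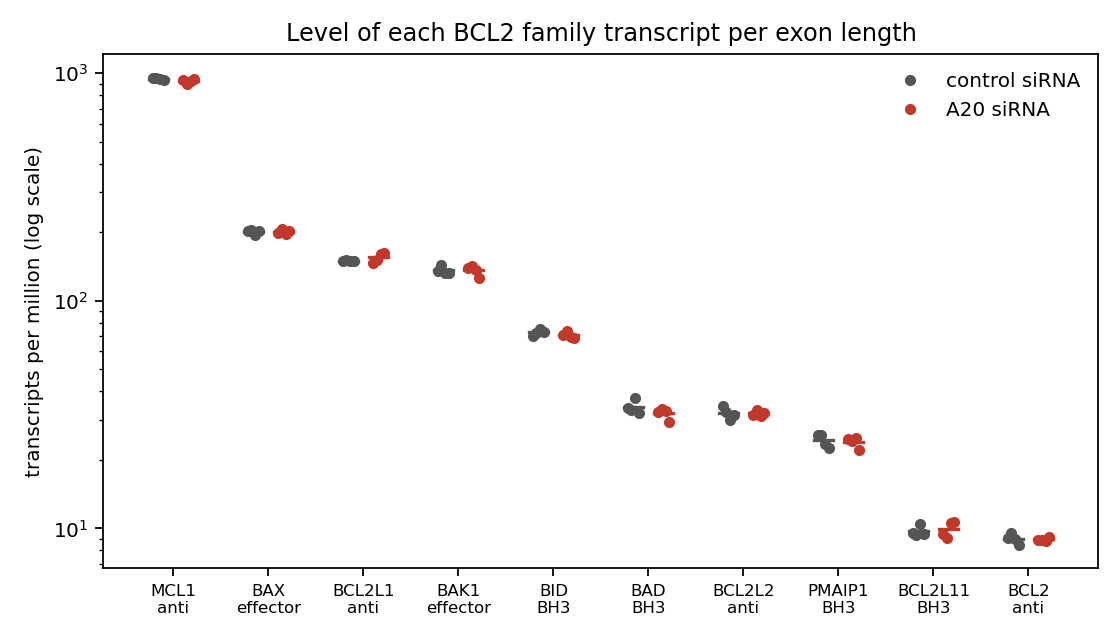
Level of each BCL2 family transcript in TPM (log axis), with 4 control siRNA samples (grey) and 4 A20 siRNA samples (red) and the group means as bars; the label under each gene gives its role. MCL1 lies 4.71-fold above BAX in control samples, and for every gene the groups lie on nearly the same level compared with the distance between genes.

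Per length, the antiapoptotic members made up 70.4% ± 0.224 of the 10 transcripts in control samples and 70.3% ± 0.964 in A20 siRNA samples (SD, n = 4 each). MCL1 alone accounted for 58.6% ± 0.231 and 58.0% ± 0.823. The effectors accounted for 20.8% ± 0.366 and 21.1% ± 0.686, and the BH3-only members for 8.71% ± 0.269 and 8.57% ± 0.302. These shares are descriptions of the libraries and were not tested. The ratio of MCL1 to PMAIP1 per length was 39.1 ± 2.33 with control siRNA and 38.7 ± 2.70 with A20 siRNA, and that of BAX to BAK1 was 1.48 ± 0.0462 and 1.48 ± 0.0882. The ratio of MCL1 to BCL2L1 was 6.31 ± 0.0820 and 5.97 ± 0.270, with values from 6.23 to 6.43 in control samples and from 5.75 to 6.36 in A20 siRNA samples, so the groups overlapped.

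The annotation limits some of these levels. Exons of BCL2L1 share 41.3% of their bases with ABALON on the opposite strand, exons of BAD share 23.7% with GPR137, also on the opposite strand, and exons of BCL2L11 share 10.8% with MIR4435-2HG on the opposite strand. Exons of BCL2L2 share 16.8% of their bases with the readthrough gene BCL2L2-PABPN1 on the same strand, which itself had 1 to 5 counts per sample. Per sample ABALON had 38 to 83 counts, GPR137 had 317 to 478 and MIR4435-2HG had 1086 to 1866. Smaller overlaps were those of BCL2L2 with PPP1R3E (6.51%, 61 to 113 counts) and HOMEZ (3.08%, not matched by identifier), of MCL1 with ADAMTSL4-AS1 (5.27%, 8 to 18 counts) and ADAMTSL4 (0.691%, 13 to 27 counts), and of BAK1 with GGNBP1 (4.11%, 0 to 8 counts). The strand setting of the counting is not given in the sources used here, so reads from such overlaps cannot be assigned with certainty. As a choice made after seeing the data, all counts of each member were also divided by only the bases that no other gene covers. BCL2L1 then came to 256.2 TPM in control samples and moved ahead of BAX, and the rest of the order did not change. Whether the counting had already dropped reads in shared bases is not given in the sources used here. If it kept them, these values are too high, and if it dropped them, the main values are too low. The order of BCL2L1 and BAX is therefore not settled. BAK1P1, a processed copy of BAK1, had 1 to 5 counts per sample.

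Sequences 250 bases before the transcription start were taken from RefSeq (GRCh38.p14) for the 8 members with an entry, which together have 14 such windows. BCL2L2 and MCL1 were not matched. Windows of BID overlap other windows of BID, and those of BAD overlap each other, so some bases and motifs are counted more than once below. The windows were rich in G and C, with a median of 69.2% (47.6% to 78%) against a median of 58% over 34943 windows of all genes. The GC box GGGCGG, searched on both strands, was present in 10 of the 14 windows (6 members) and in 42.5% of all windows. The E-box CACGTG was present in 3 of the 14 windows, 1 of BAX and 2 overlapping ones of BID, and in 6.32% of all windows. A simple form of the NFkB motif (GGG, any 3 bases, then TTCC) was present in 1 of the 14 windows, that of PMAIP1, and in 5.67% of all windows. CTTTGA, the core of the TCF/LEF motif, was present in 1 of the 14 windows, that of BAK1, and in 11.2% of all windows. TATAAA was present in 1 of the 14 windows, of BCL2L1, and in 10.8% of all windows. A match is a description of the letters and not a binding site. Of the 4 E-boxes of the BAX window, 2 lie in the 190 bases before the annotated gene, which are printed here with these E-boxes in capitals because BAX is the more abundant effector. The window of PMAIP1, the partner of MCL1, is printed with its 4 GC boxes in capitals. The BAX stretch lies at chr19:48954625-48954814 on the plus strand and the PMAIP1 window at chr18:59899746-59899995 on the plus strand, both written 5′ to 3′.
BAX: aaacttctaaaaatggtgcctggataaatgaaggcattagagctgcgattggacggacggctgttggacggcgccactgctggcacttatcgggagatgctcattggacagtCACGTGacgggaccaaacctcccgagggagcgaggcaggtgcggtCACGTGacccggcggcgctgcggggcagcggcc
PMAIP1: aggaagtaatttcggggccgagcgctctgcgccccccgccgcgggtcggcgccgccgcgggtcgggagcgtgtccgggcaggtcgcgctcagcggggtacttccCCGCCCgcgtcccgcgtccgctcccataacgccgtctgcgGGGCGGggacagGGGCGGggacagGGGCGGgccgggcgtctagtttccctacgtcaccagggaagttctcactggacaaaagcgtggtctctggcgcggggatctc

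None of the 10 members passed the test between A20 siRNA and control siRNA. Their adjusted p-values in edgeR's quasi-likelihood test ran from 0.181 for MCL1 to 0.966 for BCL2L11, where 1.25% of all tested genes were called. The numbers called by DESeq2 and by limma-voom were also 0 of 10. At an unadjusted p under 0.05, 1 of the 10, MCL1, was lower and 0 were higher, against 16.2% of all tested genes in either direction and 7.37% for lower. The median log2 fold change of the 10 was -0.02 and that of all tested genes 0.003, and 8 of the 10 were below 0, against 48.4% of all tested genes. The 95% intervals of the 10 fold changes, which are not adjusted for the number of genes, together spanned a decrease of 14.7% to an increase of 9.55%. In CPM the groups overlapped for 9 of the 10 transcripts, and MCL1 was the exception. In TPM MCL1 overlapped too, with 936.9 TPM in control replicate 4 and 941.0 TPM in A20 siRNA replicate 4. TPM was meant for the order between genes, does not use the normalized library sizes and was not tested between groups. The A20 siRNA samples lay entirely below the control samples for 3.9% of all tested genes and entirely above them for 3.71%. In these bulk samples fewer cells expressing a transcript and less of it per cell cannot be told apart.

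**Figure D2:**
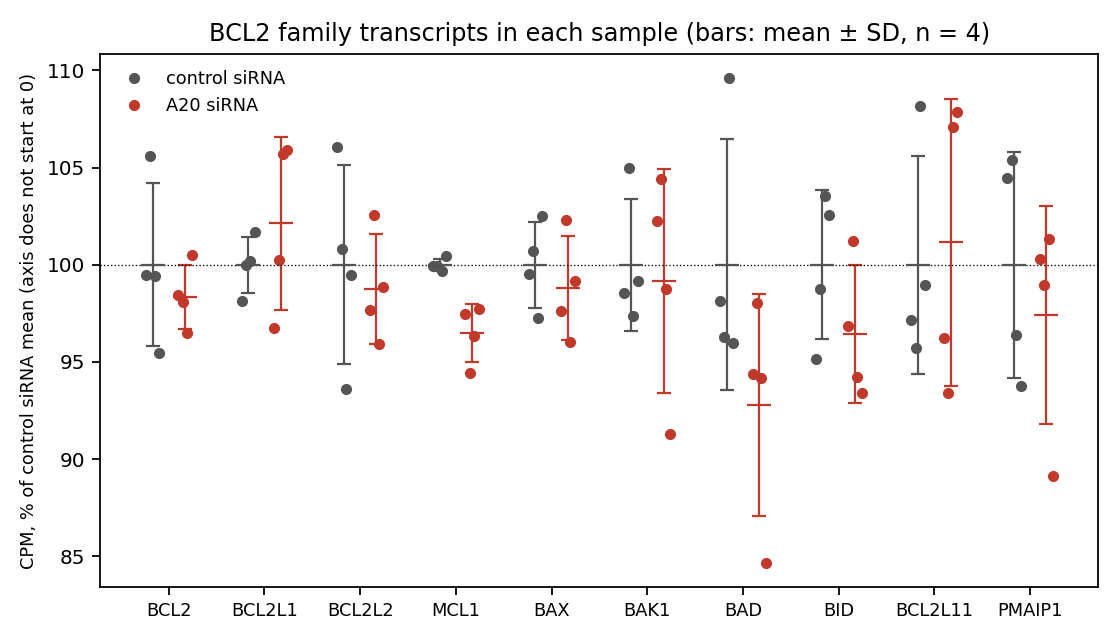
CPM of each BCL2 family transcript in each sample as a percentage of the control siRNA mean, with control siRNA in grey and A20 siRNA in red; horizontal bars are means and error bars are SD (n = 4), and the axis does not start at 0. MCL1 is the transcript whose 4 A20 siRNA samples all lie under its control samples, and BAD has the widest range.

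Among the antiapoptotic members, MCL1 (ENSG00000143384.12, chromosome 1, 150560895 to 150579738, minus strand, GRCh38) had 1379.4, 1379.5, 1375.8 and 1386.2 CPM in control replicates 1 to 4 and 1345.1, 1303.3, 1329.7 and 1348.6 CPM in A20 siRNA replicates 1 to 4. In CPM the highest A20 siRNA sample was still below the lowest control sample, and the gap between the groups was 27.1 CPM. In TPM, which does not use the normalized library sizes and was not tested between groups, they overlapped. The fitted log2 difference was -0.05 ± 0.02 (SE, edgeR adjusted p = 0.181), a change of -3.52% with a 95% interval from -6.15% to -0.807%. MCL1 rested on 28686 to 46129 counts per sample, the deepest coverage of the 10, and its control samples had a coefficient of variation of 0.314% against 1.55% in A20 siRNA samples. At its mean count, counting error alone gives 0.526%, so the control samples lay closer together than counting error alone would place them. MCL1 passed in 1 of the 17 other fits first run (adjusted p = 0.0469), the one with a block for the replicate number and a local linear trend on length and GC content. A local quadratic trend, brought in after that result had been seen, gave an adjusted p-value of 0.0503 in the same fit, so that the call of MCL1 turned on this choice.

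BCL2L1 (ENSG00000171552.12, chromosome 20, 31664452 to 31723989, minus strand) had 144.8, 147.5, 147.8 and 150.01 CPM in control replicates 1 to 4. In A20 siRNA replicates 1 to 4 it had 142.7, 147.9, 155.9 and 156.2 CPM. A20 siRNA replicates 3 and 4 were above all control samples and replicate 1 was below them, and the groups overlapped. Between groups the log2 change was 0.03 (SE 0.03, edgeR adjusted p = 0.678), with a 95% interval from -2.07% to 6.19%.

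BCL2 (ENSG00000171791.12, chromosome 18, 63123346 to 63320128, minus strand), the founding member of the family, had 26.4, 28.1, 26.4 and 25.4 CPM in control replicates 1 to 4 and 26.2, 26.1, 25.6 and 26.7 CPM in A20 siRNA replicates 1 to 4. All A20 siRNA samples lay within the range of the control samples. Its log2 change came to -0.03 (SE 0.04, edgeR adjusted p = 0.810). BCL2L2 (ENSG00000129473.9, chromosome 14, 23298790 to 23311751, plus strand) had 38.5, 36.6, 34.02 and 36.1 CPM with control siRNA and 35.5, 37.3, 34.9 and 35.9 CPM with A20 siRNA, again within the control range. A log2 change of -0.02 (SE 0.04, edgeR adjusted p = 0.853) was fitted. The 95% interval reached from -7.32% to 4.20% for BCL2 and from -6.93% to 4.48% for BCL2L2.

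The effectors overlapped between groups. BAX (ENSG00000087088.19, chromosome 19, 48954815 to 48961798, plus strand) had 121.2, 122.6, 118.4 and 124.8 CPM in control replicates 1 to 4 and 118.9, 124.6, 116.9 and 120.7 CPM in A20 siRNA replicates 1 to 4. On the log2 scale the difference was -0.02 (SE 0.03, edgeR adjusted p = 0.796), with a 95% interval from -4.81% to 2.60%. BAK1 (ENSG00000030110.12, chromosome 6, 33572547 to 33580293, minus strand) had 69.4, 73.9, 68.5 and 69.8 CPM with control siRNA and 72.0, 73.5, 69.5 and 64.3 CPM with A20 siRNA. For BAK1 the A20 siRNA replicate 4 was the lowest of all 8 samples. The log2 fold change of BAK1 was -0.01 (SE 0.04, edgeR adjusted p = 0.951), with a 95% interval from -5.60% to 4.95%.

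Among the BH3-only members, BAD (ENSG00000002330.13, chromosome 11, 64269830 to 64284704, minus strand) had the largest fitted difference of the 10. It had 13.4, 13.2, 14.97 and 13.1 CPM in control replicates 1 to 4 and 12.9, 13.4, 12.9 and 11.6 CPM in A20 siRNA replicates 1 to 4. Of the A20 siRNA samples 3 were below all control samples, and replicate 2 was within the control range. Between groups the log2 change was -0.10 (SE 0.06, edgeR adjusted p = 0.433), with a 95% interval from -14.7% to 1.81%. BAD rested on 246 to 442 counts per sample, and at its mean count, counting error alone gives a coefficient of variation of 5.33%, close to the 6.46% and 6.15% seen in control and A20 siRNA samples. Without control replicate 3, its highest sample, the log2 fold change was -0.06.

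BID (ENSG00000015475.18, chromosome 22, 17734138 to 17774770, minus strand) had 71.4, 74.1, 77.7 and 77.0 CPM with control siRNA and 72.7, 76.0, 70.7 and 70.1 CPM with A20 siRNA (replicates 1 to 4). A20 siRNA replicates 3 and 4 lay below the control samples and replicates 1 and 2 within them. Its log2 change came to -0.05 (SE 0.03, edgeR adjusted p = 0.491), with a 95% interval from -7.79% to 1.37%.

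BCL2L11 (ENSG00000153094.21, chromosome 2, 111119378 to 111168444, plus strand) had 14.9, 14.6, 16.5 and 15.1 CPM in control replicates 1 to 4 and 14.7, 14.3, 16.4 and 16.5 CPM in A20 siRNA replicates 1 to 4. A log2 change of 0.01 (SE 0.06, edgeR adjusted p = 0.966) was fitted, with a 95% interval from -7.74% to 9.55%. PMAIP1 (ENSG00000141682.11, chromosome 18, 59899996 to 59904305, plus strand) had 13.0, 13.1, 11.997 and 11.7 CPM with control siRNA and 12.5, 12.3, 12.6 and 11.1 CPM with A20 siRNA. Both transcripts had overlapping groups. The log2 fold change of PMAIP1 was -0.03 (SE 0.06, edgeR adjusted p = 0.829), with a 95% interval from -10.6% to 6.60%. These transcripts had 351 to 505 and 236 to 428 counts per sample. Counting error alone gives coefficients of variation of 4.95% and 5.52% between single samples. These are not the smallest group differences that could be detected. The uncertainty between groups is given by the 95% intervals above, which are not adjusted for the number of genes.

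**Figure D3:**
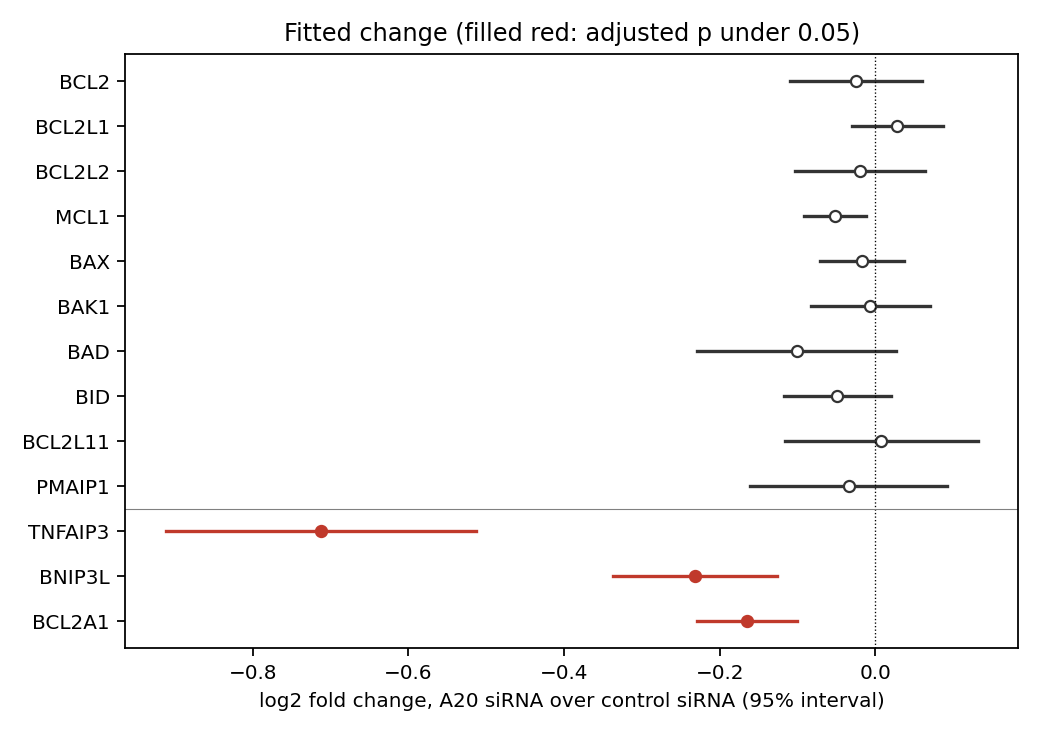
Log2 fold change of A20 siRNA over control siRNA (points) with 95% intervals (lines) for the 10 BCL2 family members, TNFAIP3, BNIP3L and BCL2A1; filled red points have an adjusted p-value under 0.05 in edgeR. The intervals of the 10 members lie between -0.23 and 0.13, and that of TNFAIP3 between -0.91 and -0.51.

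A list of 13 other BCL2 family genes gave 2 lower and 0 higher transcripts among its 10 tested genes, where 0.611% of all tested genes were called lower. Its median log2 fold change was -0.04. BCL2A1 (ENSG00000140379.7, chromosome 15, 79960892 to 79971196, minus strand), an antiapoptotic relative known as an NFkB target, had 120.9, 121.8, 119.4 and 131.1 CPM in control replicates 1 to 4 and 111.7, 113.9, 105.2 and 108.3 CPM in A20 siRNA replicates 1 to 4. All A20 siRNA samples were below all control samples. On the log2 scale the difference was -0.17 (SE 0.03, edgeR adjusted p = 0.0211), so that 89.2% of the control level remained. Per length BCL2A1 had 529.7 ± 17.7 TPM with control siRNA and 476.4 ± 13.8 TPM with A20 siRNA (SD, n = 4 each), above every member other than MCL1. In 3 of the 8 fits that left out 1 sample, those without control replicate 2, control replicate 4 or A20 siRNA replicate 3, its adjusted p-values were 0.0592, 0.0778 and 0.0990.

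The window before the BCL2A1 start, at chr15:79971197-79971446 on the minus strand, is shown because BCL2A1 was the antiapoptotic relative that passed the test. It held 38.8% G and C, less than any window of the members, and 1 TATAAA (in capitals), which 10.8% of all windows hold, and neither this NFkB motif nor CTTTGA was among its letters.
BCL2A1: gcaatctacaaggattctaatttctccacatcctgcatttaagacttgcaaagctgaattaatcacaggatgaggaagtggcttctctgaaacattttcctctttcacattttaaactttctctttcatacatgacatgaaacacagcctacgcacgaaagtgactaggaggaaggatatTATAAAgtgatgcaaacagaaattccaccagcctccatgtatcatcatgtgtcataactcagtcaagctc

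BNIP3L (ENSG00000104765.15), which encodes NIX, a BH3-like receptor for the removal of mitochondria and a known hypoxia target, had 68.6, 67.5, 66.4 and 71.3 CPM with control siRNA and 58.0, 52.4, 56.3 and 67.6 CPM with A20 siRNA (replicates 1 to 4). A20 siRNA replicate 4 was within the control range and the other 3 samples were below it. Between groups the log2 change was -0.23 (SE 0.05, edgeR adjusted p = 0.0334). It did not pass with DESeq2 (adjusted p = 0.122) or in 4 of the 8 fits that left out 1 sample, which were those without control replicates 2, 3 or 4 and without A20 siRNA replicate 3 (adjusted p = 0.0908, 0.0725, 0.122 and 0.121 in edgeR). Of the remaining genes of this list, BBC3, which encodes the BH3-only protein PUMA, had 8.84 ± 0.803 CPM with control siRNA and 8.26 ± 0.301 CPM with A20 siRNA (SD, n = 4 each; adjusted p = 0.576 from edgeR). BCL2L10, BCL2L14 and BCL2L15 were not tested, with 0 to 1, 0 and 4 to 9 counts per sample.

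None of the 17 genes of the apoptosome and caspase list passed the adjusted threshold, with 4 lower and 3 higher at an unadjusted p under 0.05 in edgeR (16.2% of all tested genes in either direction, 7.37% for lower) and a median log2 fold change of 0.01. CYCS, which encodes cytochrome c, had the smallest p-value, with a log2 change of -0.07 (SE 0.03, edgeR adjusted p = 0.167). CYCS passed without control replicate 1 (adjusted p = 0.0196), and with the replicate block and a length and GC trend, linear (adjusted p = 0.0491) or quadratic (adjusted p = 0.0454). Of the 8 outer mitochondrial membrane and mitochondrial dynamics genes 0 passed, 2 were lower at an unadjusted p under 0.05 (7.37% of all tested genes), and the median was -0.03. VDAC2, a channel protein that binds BAK1 and BAX, had 83.8, 90.5, 86.9 and 90.9 CPM with control siRNA and 82.1, 84.0, 76.5 and 75.0 CPM with A20 siRNA. It was at the threshold, with a log2 fold change of -0.14 (SE 0.04, edgeR adjusted p = 0.0520) and adjusted p-values from 0.000204 to 0.187 over the alternatives. VDAC2 passed in 11 of the 13 alternatives that kept all samples and in 3 of the 8 that left out 1. VDAC3 had a log2 fold change of -0.06 (adjusted p = 0.169).

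The list of 6 enzymes that set the stability of MCL1 protein had 0 genes past the threshold (1.25% of all tested genes). Its median log2 fold change was 0.01. At an unadjusted p under 0.05 in edgeR, 1 was lower and 1 higher (16.2% of all tested genes in either direction, 7.37% for lower). HUWE1, a ubiquitin ligase that targets MCL1, had 516.8, 424.0, 461.4 and 483.7 CPM in control replicates 1 to 4 and 538.0, 493.1, 533.2 and 542.6 CPM in A20 siRNA replicates 1 to 4. Of its A20 siRNA samples 3 were above all control samples. Its log2 change came to 0.16 (SE 0.04, edgeR adjusted p = 0.0614). HUWE1 passed in 2 of the 8 fits that left out 1 sample and in 4 of the 13 alternatives that kept all samples. Adjusted p-values with 1 sample left out ran from 0.00197, without control replicate 1, to 0.205, without control replicate 2. With DESeq2 the adjusted p-value was 0.243. HUWE1 has 17780 exonic bases, control replicate 1 had its highest control level, and adjusting for length and GC content lowered its log2 fold change to 0.10. The part of transcript length in this difference was not tested. MARCHF5, a mitochondrial ubiquitin ligase, had a log2 fold change of -0.07 (adjusted p = 0.241).

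Of 10 transcription factors known to act on BCL2 family genes 9 were tested, and 0 passed at the adjusted threshold in edgeR (1.25% of all tested genes). At an unadjusted p under 0.05 the number was also 0 (16.2% of all tested genes). The median log2 fold change of the 9 was 0.01. The smallest p-values belonged to E2F1 (log2 fold change 0.04, adjusted p = 0.532) and FOXO1 (0.07, adjusted p = 0.555). TP63 had no count in any sample.

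**Figure D4:**
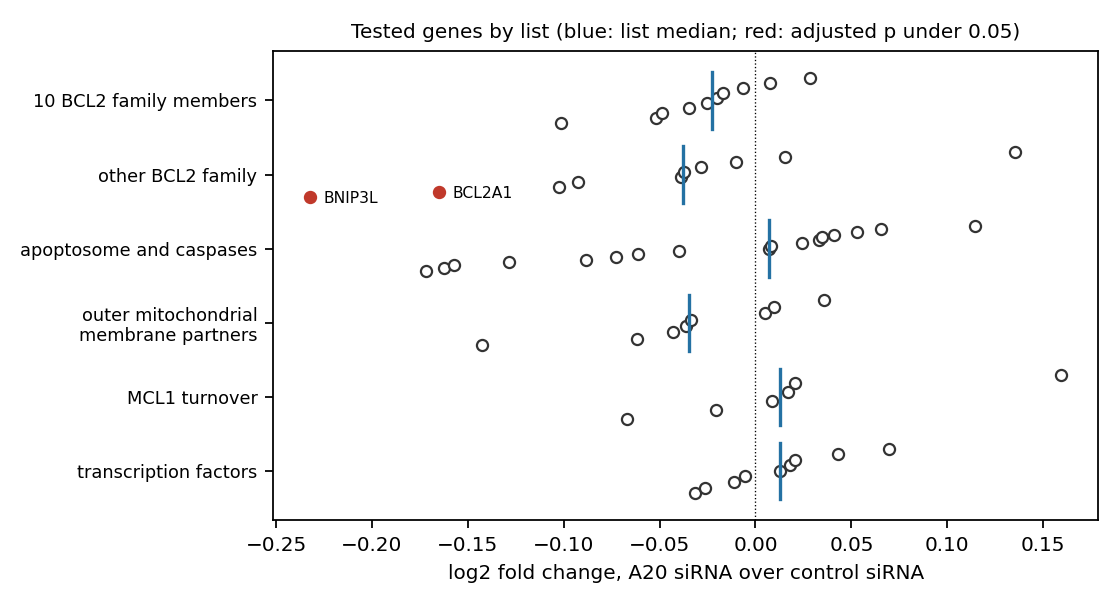
Log2 fold change of A20 siRNA over control siRNA for every tested gene of each list (points), with the list median as a blue line; filled red points have an adjusted p-value under 0.05 in edgeR. BNIP3L and BCL2A1, both of the other BCL2 family list, are the filled points, and the 10 members lie between -0.10 and 0.03.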

How the data were processed

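RNAseq was performed on poly(A) RNA from 8 RKO samples, 4 with control siRNA and 4 with A20 siRNA. As raw counts of uniquely mapping reads per gene, the authors deposited the output of STAR on GRCh38.p7 after trimming with Trimmomatic. The GENCODE release and the strand setting are not given in the sources used here. No source says whether replicates were separate cultures, so p-values measure only the spread between these samples, which may be technical. Replicate pairs differed by more than sampling noise (chi-square per degree of freedom 1.32 to 3.67).

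Counts were filtered with filterByExpr (minimum count 10), normalized by TMM and tested by quasi-likelihood in edgeR 4.0.16 (R 4.3.3) without covariates, with Benjamini-Hochberg adjustment over 13412 genes and a threshold of 0.05. The biological coefficient of variation was 2.73%. TPM and coordinates use GENCODE release 44 on GRCh38, to which 56948 of 57992 genes matched by Ensembl identifier. Of the tested genes 99.3% had a length and GC content. The pipeline was tested on simulated data.

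The members and the lists were chosen with earlier results of these data known. All members were named, and from each further list the genes past the threshold or, with none, the 2 of smallest p-value. BBC3 was added after its values were seen. One gene that this rule names is not reported here. The 17 other fits were RLE scaling, testing all genes with a count, a stricter filter of 10 counts in each sample, DESeq2 1.42.0 (also with a normal prior), limma-voom (limma 3.58.1), a block for the replicate number, a loess trend per sample on exonic length and GC content (span 0.5), both of these together, and each sample left out in turn. The degree of the trend and the level of DESeq2 independent filtering were not specified beforehand, and the forms first run were a local linear trend and filtering at 0.05. A local quadratic trend and the DESeq2 default were brought in after those results had been seen and are given as 4 added fits.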

Additional observations from a re-analysis of the deposited data

Results flagged for a closer look

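Among 42 groups of 4 samples checked for a single sample far from the rest, 3 stood out, where chance gives about 2.1. For BAD, control replicate 3 had 14.97 CPM and the other control samples 13.1 to 13.4 CPM, a gap of 0.840 of the range of the group. Without that sample the log2 change of BAD was -0.06. For TNFAIP3, A20 siRNA replicate 2 had 3.01 CPM and the rest of its group 3.40 to 3.47 CPM, a gap of 0.847 of the range. For FOXO1, control replicate 1 had 16.5 CPM and the rest of its group 15.4 to 15.6 CPM, a gap of 0.857 of the range.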

How the results depend on the processing

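In the 17 other fits, in the form first run, the count of higher BCL2 family members was 0 and that of lower members was 0 in all but the fit with the replicate block and a local linear length and GC trend, where it was 1 (MCL1, adjusted p = 0.0469). A local quadratic trend, brought in after that result had been seen, gave 0 (MCL1, adjusted p = 0.0503), as did the other 3 added fits, so a count of 0 is not stable to this choice. MCL1 was below 0 in all 21. The 210 member values ran from -0.13 to 0.05, and 13 had another sign than the value reported, in BAK1, BCL2L2 and BCL2L11. BAK1 was 0.0072 with the quadratic trend and 0.0054 with the block added. BCL2L11 was -0.0083 and -0.0040 in these fits, and -0.012 and -0.0072 with the linear trend. With 1 sample left out BAK1 ran from -0.033 to 0.026, BCL2L2 from -0.053 to 0.0097 and BCL2L11 from -0.023 to 0.046. Causes were not tested. TNFAIP3 ran from -0.77 to -0.67 with 1 sample left out and passed in every fit that gave it an adjusted p-value; DESeq2 filtering at 0.05, with or without the normal prior, gave none.

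Over all genes (82 lower, 85 higher), testing every gene with a count gave 310 and 314. The replicate block gave 212 and 262, the quadratic trend 240 lower, and the linear trend 251 lower. Block and trend together gave 440 and 197 (quadratic) or 428 and 193 (linear). With 1 sample left out, 6 to 430 were lower and 6 to 567 higher, the most without control replicate 1 and the fewest without A20 siRNA replicate 3. The other BCL2 family list, examined after seeing the data, had 1 lower gene in each of the 4 DESeq2 fits and 0 to 2 with 1 sample left out. Deviations of same-numbered samples had low correlations (-0.0098 to 0.084, mean 0.036), and 4 of 8 samples correlated best with their own number. Whether the replicate numbers mark pairs was not tested. In the fit with the block and no trend VDAC2 (adjusted p = 0.0172) and HUWE1 (0.000969) passed, and with the block and either trend CYCS passed too. VDAC2 and HUWE1 also passed in some fits without the block. Depth limits BAD, BCL2L11 and PMAIP1 most.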
